A study of Drosophila melanogaster with 15 samples.

Results

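The levels of 10 genes of the Dpp pathway were examined in larval eye discs of Drosophila melanogaster that expressed Yap or Yki proteins of different species. The genes were found by their symbols in the deposited tables. They were the ligand genes dpp and gbb, the receptor genes tkv and put, the Smad genes Mad and Med, the inhibitor Dad, the cofactor shn, the repressor brk and the target bi. All 10 were found among 14671 genes, and all 10 were among the 9213 genes with enough signal to be tested (3 or more libraries with an FPKM of 1 or above). FPKM is the number of sequenced fragments per kilobase of transcript and scaled to the fragments of the library.

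Dpp is the main fly ligand of the BMP branch of the TGF-beta family, and Gbb is a related ligand that can pair with it. Bound ligand brings together the receptors Thickveins and Punt, and Thickveins phosphorylates the Smad protein Mad, which enters the nucleus with its partner Medea. There, together with Schnurri, they silence brk, whose product Brinker represses Dpp targets, so that targets such as bi (also known as omb) and Dad come on where Dpp signalling is strong. In the eye disc, Hedgehog from differentiating cells turns on dpp in the morphogenetic furrow, the front that sweeps across the disc and leaves photoreceptors behind it. Dpp there helps the furrow to start and move and opposes wg, a ligand gene active at the disc margins. Yki is the transcriptional coactivator that the Hippo pathway restrains, and Yap is its counterpart in other species.

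The study had 5 groups of 3 libraries, all with GMR-Gal4, which drives expression in the cells behind the furrow. Control discs carried UAS-eGFP alone, and the other groups carried in addition UAS-MonosigaYAP (Yap of a choanoflagellate, here Monosiga Yap), the same protein with HumanTBD (Monosiga Yap-TBD, where TBD was read as a TEAD-binding domain), DrosophilaYKI S168A (Yki S168A) or TrichoplaxYAP S81A (Yap of a placozoan, Trichoplax Yap S81A). Per the labels, control eyes were normal and Monosiga Yap caused defects of differentiation. Ectopic proliferation was strong with Monosiga Yap-TBD and Trichoplax Yap S81A and of a middle degree with Yki S168A. Each library pooled 25 to 30 discs of third-instar larvae, cut down by surgery to the GFP-positive domain. RNA was extracted in triplicate for each genotype, and nothing in the labels says that the triplicates came from separate crosses, so p-values measure the spread between libraries, which may be technical. Host strain and sex were not stated.

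The estimated depth was 12.05 to 20.7 M fragments per library. In the Yki S168A libraries yki had a level of 695.5, 706.2 and 408.3 FPKM, and it lay at 66.8 to 89.0 FPKM in all others. In the Yki S168A libraries, RNA of the fly transgene and of the fly's own yki gene cannot be told apart in this level. The transgenes of other species are not covered by a fly gene. The 8 marker genes of the eye disc behind the furrow summed to 355 to 442 FPKM in the control and 317 to 426 with Monosiga Yap. Their sum was 73.8 to 82.2 FPKM with Monosiga Yap-TBD, 164 to 207 with Yki S168A and 147 to 196 with Trichoplax Yap S81A, and no marker was at 0 in any group. The 5 fat body markers summed to 4503 FPKM in Trichoplax Yap S81A replicate 1 and to between 0.684 and 44.9 FPKM in the other libraries. Values without that library are therefore given below for dpp, Dad and brk, and for some other genes where a call was lost. In bulk tissue, a change in the number of cells of a type and a change of RNA per cell cannot be told apart.

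The gene dpp (2L:2428454-2459609, plus strand, build dm3, as are all positions here) rose with 3 of the 4 constructs. Its level was 7.23, 7.05 and 5.59 FPKM in the control libraries and 7.87, 6.99 and 6.35 FPKM with Monosiga Yap. It was 27.5, 27.3 and 29.5 FPKM with Monosiga Yap-TBD, 24.6, 16.9 and 22.8 FPKM with Yki S168A, and 25.1, 21.6 and 27.8 FPKM with Trichoplax Yap S81A. Control and Monosiga Yap libraries overlapped, and the lowest library of the other constructs, at 16.9 FPKM, was above the highest of these at 7.87 FPKM.

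Against the control mean of 6.62 ± 0.90 FPKM (SD, n = 3), dpp was 4.25-fold higher with Monosiga Yap-TBD (log2 difference of FPKM + 1 of 1.94, SE 0.15, limma adjusted p = 8.01e-07). It was 3.24-fold higher with Yki S168A (log2 1.55, SE 0.15, limma adjusted p = 4.25e-05) and 3.75-fold higher with Trichoplax Yap S81A (log2 1.76, SE 0.15, limma adjusted p = 6.39e-06). With Monosiga Yap the log2 difference was 0.08, with a 95% interval from -0.25 to 0.42. Each of the 3 calls held in all 15 alternatives run for it. Without the Trichoplax Yap S81A library rich in fat body RNA, the log2 difference was 1.75 with limma adjusted p = 6.87e-05. The 6 antenna and head capsule markers summed to 15.6 to 16.0 FPKM in the control, 24.7 to 27.2 with Monosiga Yap-TBD, 13.7 to 24.1 with Yki S168A and 11.5 to 15.9 with Trichoplax Yap S81A. In these sums single genes moved apart. With Monosiga Yap-TBD mean lab was 17.5 FPKM against 2.75 in the control, while ss, oc and ct had lower means. Mean Dll was 0.395 FPKM in the control, 7.70 with Yki S168A and 4.37 with Trichoplax Yap S81A. The means of ss, ems, oc and ct were lower than in the control with both of the latter constructs. The 8 markers of the furrow and of anterior progenitors summed to 410 to 434, 363 to 512, 463 to 574 and 495 to 519 FPKM in the same order. Here too the genes differed: hth had a mean of 105.8 FPKM in the control, 242.5 with Yki S168A and 173.5 with Trichoplax Yap S81A, and h had 15.8, 25.8 and 73.7 FPKM, while the means of ato, toy and tsh were lower with both constructs. The part of these cell types and of the cells behind the furrow in the level of dpp was not tested. The lowest dpp value rested on an estimated 234 fragments.

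**Figure D1:**
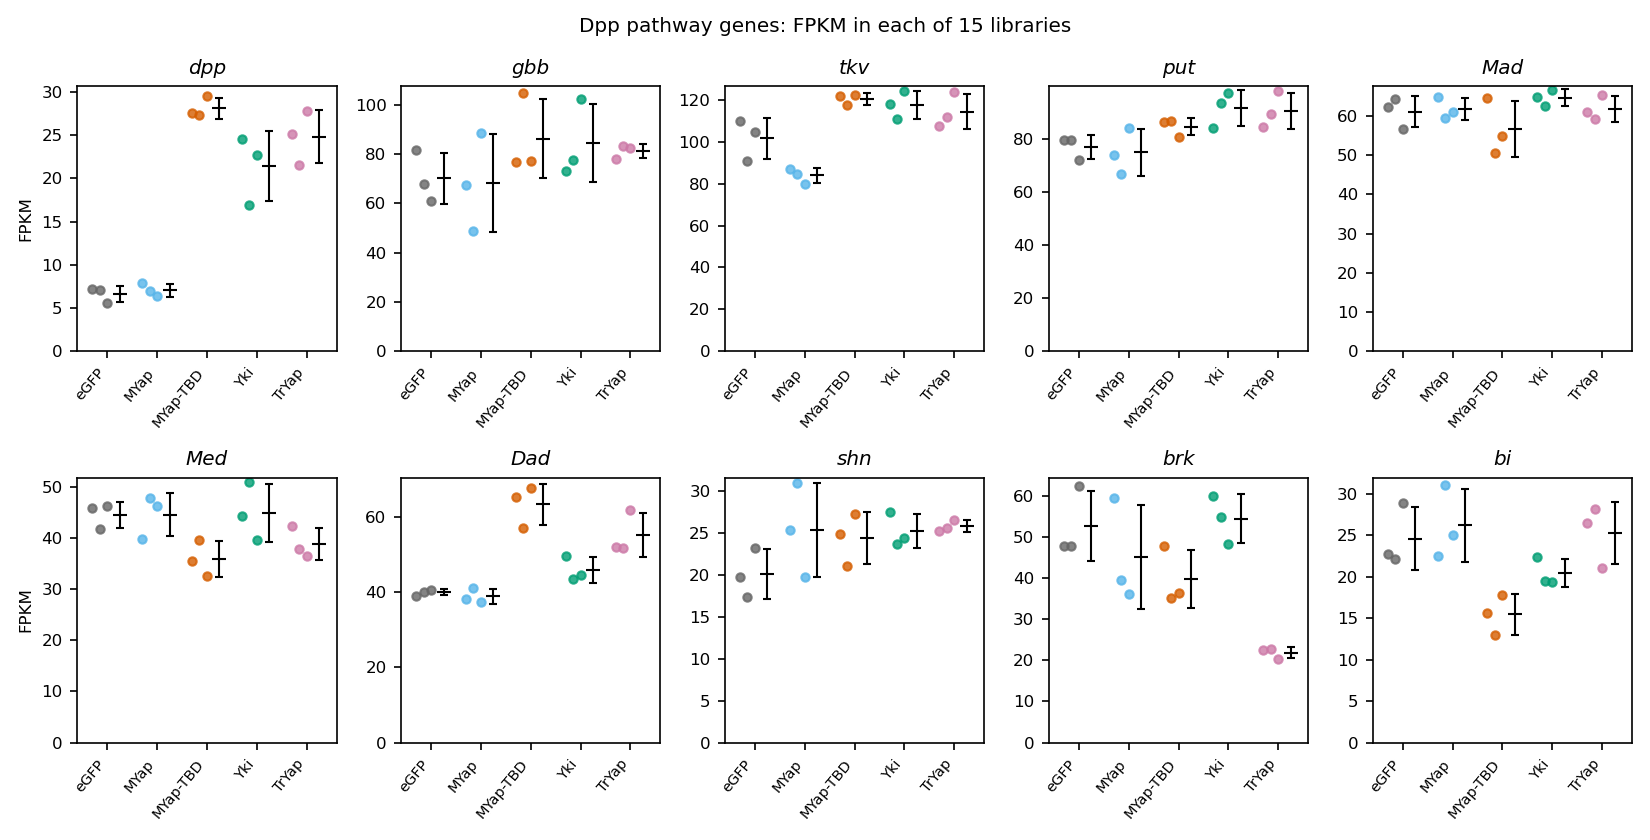
Level of each of the 10 Dpp pathway genes (FPKM, linear axis from 0) in the 15 libraries by group, with points for libraries and bars for the mean and SD of 3. The dpp libraries of Monosiga Yap-TBD, Yki S168A and Trichoplax Yap S81A lie between 16.9 and 29.5 FPKM, above the control and Monosiga Yap, and brk with Trichoplax Yap S81A lies between 20.4 and 22.8 FPKM, below all other libraries.

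The second ligand gene, gbb (2R:19739106-19740772, plus strand), stood at 61.1 to 81.5 FPKM in the control libraries. Its group means ran from 68.2 ± 19.9 FPKM with Monosiga Yap to 86.2 ± 16.1 FPKM with Monosiga Yap-TBD (SD, n = 3), with libraries of neighbouring groups overlapping. No comparison with the control was called for gbb. Its largest log2 difference from the control was 0.29 with Monosiga Yap-TBD (limma adjusted p = 0.331).

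The type I receptor gene tkv (2L:5218996-5271353, minus strand) was the most abundant of the 10 in the control, at 109.9, 91.0 and 104.5 FPKM. It was 87.1, 84.9 and 80.0 FPKM with Monosiga Yap, below every other library. It was 122.0, 117.4 and 122.4 FPKM with Monosiga Yap-TBD, above every control library. Neither difference from the control was called: the log2 difference was -0.27 (95% interval -0.48 to -0.07, limma adjusted p = 0.691) with Monosiga Yap and 0.25 (limma adjusted p = 0.0768, and 0.0204 with weights per library) with Monosiga Yap-TBD. The direct comparison of these constructs was called, with tkv 1.44-fold higher with Monosiga Yap-TBD (log2 0.52, SE 0.10, limma adjusted p = 0.00114). With Yki S168A and Trichoplax Yap S81A, tkv was 110.9 to 124.3 and 107.7 to 124.0 FPKM (limma adjusted p = 0.181 and 0.291). The genes TpnC25D, Cyp4ac1, Cyp4ac2 and Cyp4ac3 lie within tkv on the other strand, none above 1.44 FPKM in any library, and whether counting used strand is not stated.

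The type II receptor gene put (3R:10446052-10451421, minus strand) stood at 71.8 to 79.7 FPKM in the control. Its means were 84.5 ± 3.33, 91.5 ± 6.70 and 90.5 ± 6.76 FPKM (SD, n = 3) with Monosiga Yap-TBD, Yki S168A and Trichoplax Yap S81A, and every library of these groups was above every control library. None of these differences was called, with log2 differences of 0.13, 0.25 and 0.23 and limma adjusted p = 0.401, 0.157 and 0.185. With weights per library put passed with Yki S168A (limma adjusted p = 0.0260).

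Among the signal-transducing Smads, Mad (2L:3146484-3159630, minus strand) varied least of the 10 genes between groups. Its group means lay between 56.6 ± 7.11 FPKM with Monosiga Yap-TBD and 64.7 ± 2.07 FPKM with Yki S168A (SD, n = 3), with 61.1 ± 4.0 FPKM in the control, and no comparison was called. Med (3R:27436787-27440927, plus strand) was 45.9, 41.7 and 46.2 FPKM in the control and 35.6, 39.6 and 32.6 FPKM with Monosiga Yap-TBD. These libraries did not overlap, and the log2 difference was -0.31 (95% interval -0.57 to -0.05, limma adjusted p = 0.0788). It crossed the threshold under upper-quartile scaling (limma adjusted p = 0.0326), quantile normalization (0.0326) and weights per library (0.0123). CycG overlaps Med on the other strand at 193 to 252 FPKM, so the level of Med is uncertain if strand was not used.

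Dad (3R:12879729-12896135, plus strand), an inhibitory Smad and a feedback target of the pathway, rose with 2 constructs. It was 39.1, 40.0 and 40.7 FPKM in the control and 38.1, 41.2 and 37.3 FPKM with Monosiga Yap. With Monosiga Yap-TBD it was 65.3, 57.1 and 67.6 FPKM, with Yki S168A 49.7, 43.4 and 44.6 FPKM, and with Trichoplax Yap S81A 51.9, 51.7 and 61.8 FPKM. All 9 libraries of these constructs were above all 6 libraries of the control and of Monosiga Yap, and Trichoplax Yap S81A did not overlap with Yki S168A.

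Against the control, Dad was 1.59-fold higher with Monosiga Yap-TBD (log2 0.65, SE 0.10, limma adjusted p = 0.000389). It was 1.38-fold higher with Trichoplax Yap S81A (log2 0.45, SE 0.10, limma adjusted p = 0.0109). The latter call was lost without Trichoplax Yap S81A replicate 3 (log2 0.37, limma adjusted p = 0.0505) and under quantile normalization (0.0503), and was kept without the library rich in fat body RNA (log2 0.49, 0.0198). With Yki S168A the log2 difference of Dad was 0.19 (95% interval -0.03 to 0.42, limma adjusted p = 0.268).

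The gene shn (2R:7061325-7104918, plus strand), which encodes the zinc finger cofactor of Mad and Medea, stood at 19.8, 17.4 and 23.3 FPKM in the control. Its means with the 4 constructs lay between 24.4 ± 3.13 and 25.8 ± 0.73 FPKM (SD, n = 3). The log2 differences from the control were between 0.27 and 0.35, and none was called (limma adjusted p between 0.178 and 1). With weights per library shn passed with Monosiga Yap-TBD (limma adjusted p = 0.0206) and Trichoplax Yap S81A (0.0258). CG9084, within shn on the other strand, reached at most 2.77 FPKM.

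The repressor gene brk (X:7201974-7205645, plus strand) fell with Trichoplax Yap S81A. It was 47.8, 47.9 and 62.4 FPKM in the control, 59.5, 39.4 and 36.1 FPKM with Monosiga Yap, and 47.9, 35.3 and 36.4 FPKM with Monosiga Yap-TBD. It was 60.1, 54.96 and 48.2 FPKM with Yki S168A and 22.4, 22.8 and 20.4 FPKM with Trichoplax Yap S81A. The 3 Trichoplax Yap S81A libraries were below the other 12, and the other groups overlapped with their neighbours in the order of means.

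The ratio of mean brk levels was 0.415 for Trichoplax Yap S81A over the control (log2 -1.22, SE 0.18, limma adjusted p = 0.000451), a call that held in all 15 alternatives. Without the library rich in fat body RNA, the log2 difference was -1.24 (limma adjusted p = 0.00215). With Monosiga Yap-TBD it was -0.40 (95% interval -0.78 to -0.01, limma adjusted p = 0.131), and with Yki S168A it was 0.05 (95% interval -0.34 to 0.44, limma adjusted p = 0.906).

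The target gene bi (X:4306889-4378485, plus strand), a T-box transcription factor, fell with Monosiga Yap-TBD. It was 22.8, 22.1 and 28.9 FPKM in the control and 15.6, 13.0 and 17.8 FPKM with Monosiga Yap-TBD. It was 22.5 to 31.1 FPKM with Monosiga Yap, 19.4 to 22.3 FPKM with Yki S168A and 21.0 to 28.2 FPKM with Trichoplax Yap S81A. The Monosiga Yap-TBD libraries were below the other 12. The ratio to the control was 0.628 (log2 -0.64, SE 0.16, limma adjusted p = 0.0105), and the call was lost without Monosiga Yap-TBD replicate 2 (log2 -0.52, limma adjusted p = 0.0556) or without control replicate 3 (log2 -0.52, 0.0551). With Trichoplax Yap S81A the log2 difference of bi was 0.04 (95% interval -0.31 to 0.38, limma adjusted p = 0.928) and with Yki S168A -0.25 (limma adjusted p = 0.378). The markers of the eye disc behind the furrow summed to 73.8 to 82.2 FPKM with Monosiga Yap-TBD and 355 to 442 in the control. The part of these cells in the bi level was not tested.

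Set side by side, the 3 constructs with higher dpp differed in which downstream genes were called against the control. With Monosiga Yap-TBD, Dad rose and bi fell. With Trichoplax Yap S81A, Dad rose and brk fell. With Yki S168A no downstream member was called. These comparisons share the control libraries, and differing calls are no test of a difference between constructs. The constructs are compared with each other directly below.

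Of the 10 members, 0 were called with Monosiga Yap against the control, where 0.326% of all tested genes were called by limma at adjusted p under 0.05, and 1 had an unadjusted p under 0.05. With Monosiga Yap-TBD 3 of 10 were called, against 24.6% of all genes: 2 rose, against 12.6%, and 1 fell, against 12%. With Yki S168A 1 of 10 was called, against 11.9%: 1 rose, against 5.42%, and 0 fell, against 6.52%. With Trichoplax Yap S81A 3 of 10 were called, against 12.2%: 2 rose and 1 fell, against 6.09% in each direction. Libraries did not overlap with the control for 1, 6, 5 and 5 of the 10 members in these comparisons, against 7.3%, 43.3%, 33.2% and 35.4% of all tested genes. The median log2 difference of the members was -0.02, 0.19, 0.20 and 0.19, and that of all tested genes -0.02, 0.01, 0.00 and 0.04. The median size of the log2 difference, without its sign, was 0.08, 0.30, 0.23 and 0.22 for the members and 0.12, 0.30, 0.24 and 0.24 for all tested genes. The unsigned medians of the members lay near those of all tested genes, while with Monosiga Yap-TBD, Yki S168A and Trichoplax Yap S81A the signed medians were higher. No test of the members as a group was made. The background counts moved by over 1.5 times when single libraries were left out, from 1122 to 745 called genes for Trichoplax Yap S81A without its replicate 3 and from 1100 to 723 for Yki S168A without control replicate 2. For Monosiga Yap, 30 called genes became 16 to 18 without any 1 of its libraries and 17 without control replicate 1 or 2.

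**Figure D2:**
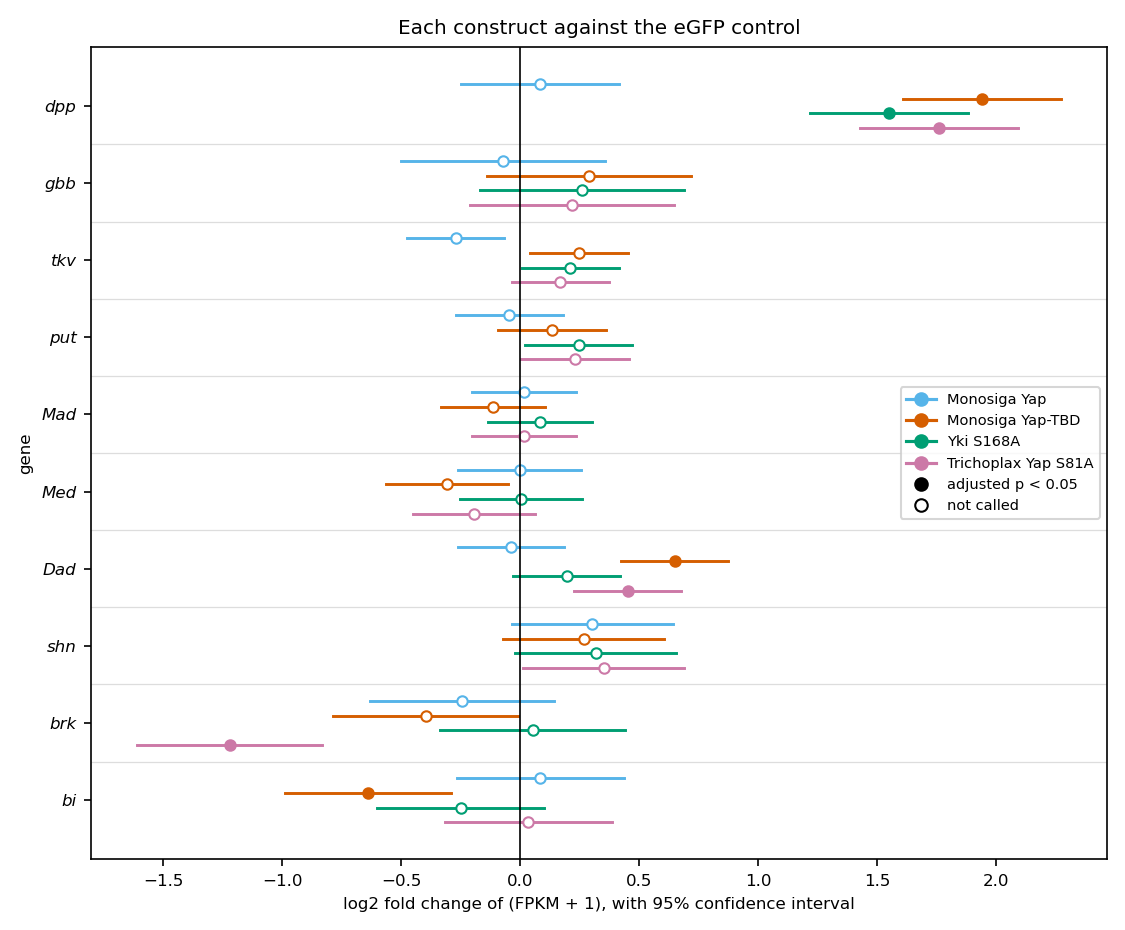
Log2 difference from the eGFP control (FPKM + 1) of each member for the 4 constructs, with 95% confidence intervals and filled points for limma adjusted p under 0.05. The filled points are dpp with 3 constructs at 1.55 to 1.94, Dad with Monosiga Yap-TBD and Trichoplax Yap S81A, brk with Trichoplax Yap S81A at -1.22 and bi with Monosiga Yap-TBD at -0.64.

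In the direct comparison of Monosiga Yap-TBD with Monosiga Yap, 4 of the 10 members were called, where 26.5% of all genes were called. Of these members 3 rose, against 14.3% of all genes, and 1 fell, against 12.2%. Libraries did not overlap for 5 of the 10, against 35.7% of all genes. The gene dpp was 3.98-fold higher (log2 1.86, limma adjusted p = 1.28e-06), and tkv rose as given above. Dad was 1.63-fold higher (log2 0.69, limma adjusted p = 0.000246). The ratio for bi was 0.590 (log2 -0.72, limma adjusted p = 0.00455). These 4 calls held in all 15 alternatives. The levels of the transgenes are not known. The markers of the eye disc behind the furrow summed to 317 to 426 FPKM with Monosiga Yap and 73.8 to 82.2 with Monosiga Yap-TBD. The part of transgene level and of these cells in the differences was not tested. The log2 difference of brk was -0.15 (limma adjusted p = 0.598) and that of gbb 0.36 (0.215). Without Monosiga Yap replicate 3 the difference of gbb was 0.57 and was called (limma adjusted p = 0.0393), and without Monosiga Yap replicate 1 that of brk was 0.06.

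Between Trichoplax Yap S81A and Yki S168A, brk was the 1 member called, where 0.51% of all tested genes were called and 0.163% fell. Libraries did not overlap for 2 of the 10, against 11.2% of all genes. The number of genes called, 47, became 29 and 30 without Yki S168A replicate 2 and 3, and 172 with weights per library. The ratio of means was 0.402 (log2 -1.27, SE 0.18, limma adjusted p = 0.00269), and the call held in all 15 alternatives, with a log2 difference of -1.29 and limma adjusted p = 0.0145 without the library rich in fat body RNA. For dpp the log2 difference was 0.21 (95% interval -0.12 to 0.54, limma adjusted p = 0.916), and for Dad 0.26 (limma adjusted p = 0.738).

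Monosiga Yap-TBD and Yki S168A differed by the test in 1 member, Dad, where 7.13% of all genes were called, 3.39% higher and 3.74% lower with Monosiga Yap-TBD. Libraries did not overlap for 4 of the 10, against 25.5% of all genes. The number of genes called, 657, became 363 without Yki S168A replicate 2, 397 and 378 without Monosiga Yap-TBD replicate 1 and 2, and 2121 with weights per library. Dad was 1.38-fold higher with Monosiga Yap-TBD (log2 0.45, limma adjusted p = 0.0150). This call was lost without Yki S168A replicate 2 (log2 0.42, limma adjusted p = 0.0849), without Monosiga Yap-TBD replicate 1 (log2 0.43, 0.0740) or replicate 3 (log2 0.41, 0.0673), and when the fit held only those groups (0.0650). All dpp libraries of Monosiga Yap-TBD, the lowest at 27.3 FPKM, were above those of Yki S168A, the highest at 24.6 FPKM. The log2 difference of dpp was 0.39 (95% interval 0.06 to 0.72) and was not called (limma adjusted p = 0.171), but it passed with weights per library (0.00482). For brk and bi the log2 differences were -0.45 and -0.39, and neither was called (limma adjusted p = 0.182 and 0.203).

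Monosiga Yap-TBD and Trichoplax Yap S81A differed in 2 members, brk and bi, where 6.32% of all genes were called, 2.98% higher and 3.33% lower with Monosiga Yap-TBD. Libraries did not overlap for 2 of the 10, against 24.2% of all genes. The number of genes called, 582, became 317 and 327 without Monosiga Yap-TBD replicate 1 and 2, and 1361 with weights per library. The level of brk was 1.82-fold higher with Monosiga Yap-TBD (log2 0.82, SE 0.18, limma adjusted p = 0.0130). That call was lost without Monosiga Yap-TBD replicate 1 (log2 0.69, limma adjusted p = 0.0748) or Trichoplax Yap S81A replicate 3 (log2 0.78, 0.0544). The ratio for bi was 0.613 (log2 -0.67, SE 0.16, limma adjusted p = 0.0227). It was called in 9 of 15 alternatives and lost without Monosiga Yap-TBD replicate 1 or 2 (limma adjusted p = 0.0720 and 0.120) and without Trichoplax Yap S81A replicate 1 or 2 (0.0868 and 0.101). For dpp and Dad the log2 differences were 0.18 and 0.20 (limma adjusted p = 0.627 and 0.358).

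**Figure D3:**
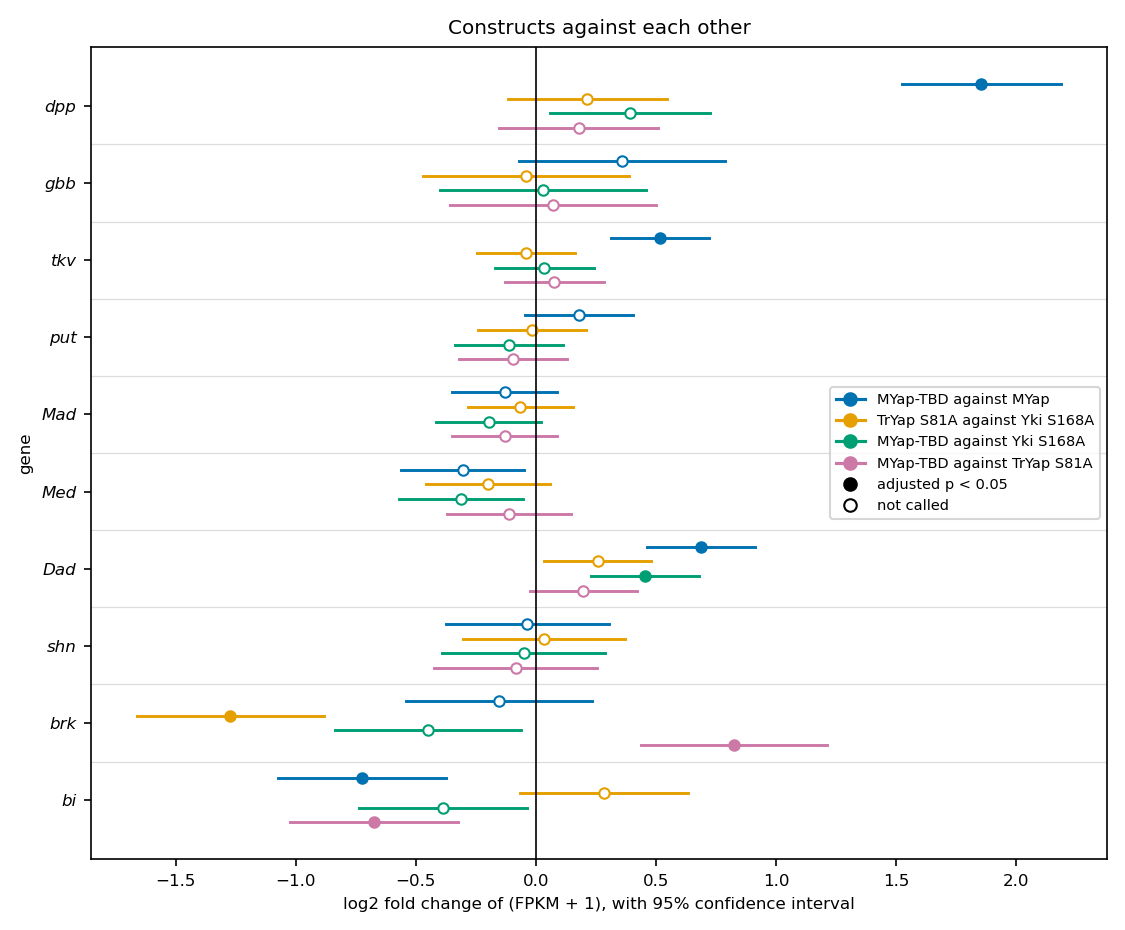
Log2 difference (FPKM + 1) of each member between pairs of constructs, with 95% confidence intervals and filled points for limma adjusted p under 0.05. For brk, Trichoplax Yap S81A against Yki S168A lies at -1.27 and Monosiga Yap-TBD against Trichoplax Yap S81A at 0.82, while for dpp the interval lies far from 0 in Monosiga Yap-TBD against Monosiga Yap, at 1.86.

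Other genes of the pathway were taken from 6 lists with 60 entries, of which 59 matched a gene, and 5 listed genes could not be compared (srw unmatched, and scw, vg, Doc1 and Doc2 too low). With Monosiga Yap, none of the tested genes of these lists was called against the control, where 30 of all tested genes were called and 455 had an unadjusted p under 0.05.

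The list of secreted and surface modulators, proteins that bind, carry or process BMP ligands outside the cell, held the most changed genes. Of 15 tested, 8 rose and 2 fell with Monosiga Yap-TBD, and 5 rose and 2 fell with each of Yki S168A and Trichoplax Yap S81A. Of all tested genes, 12.6% rose and 12% fell with Monosiga Yap-TBD, 5.42% and 6.52% with Yki S168A, and 6.09% each way with Trichoplax Yap S81A. The median log2 differences were 0.51, 0.28 and 0.30, with 0.01, 0.00 and 0.04 over all tested genes. This list, like the others, was written with earlier results of these data known. Its counts above the shares of all genes are therefore no independent result. The genes dally, cv, cv-2, sog and Fs rose with all 3 constructs, and magu fell with all 3. The call of cv-2 with Yki S168A (limma adjusted p = 0.0347) was made in 8 of 15 alternatives and lost without Yki S168A replicate 1 or 2 (0.136 and 0.0911) or control replicate 1 or 2 (0.133 and 0.0763).

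The gene sog encodes a secreted BMP antagonist related to vertebrate chordin. It was 20.2, 14.95 and 16.7 FPKM in the control and 144.0, 146.6 and 144.9 FPKM with Monosiga Yap-TBD. It was 50.9, 45.4 and 49.1 FPKM with Yki S168A and 25.1, 31.5 and 46.6 FPKM with Trichoplax Yap S81A. All 9 of these libraries were above the control, and the Monosiga Yap-TBD libraries were far above the rest. Over the control, sog was 8.41-fold higher with Monosiga Yap-TBD (limma adjusted p = 5.69e-08), 2.81-fold with Yki S168A (0.000174) and 1.99-fold with Trichoplax Yap S81A (0.0034). It was higher with Monosiga Yap-TBD than with Yki S168A (limma adjusted p = 8.35e-05) and than with Trichoplax Yap S81A (6.92e-06), in all 15 alternatives run for each.

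Sulf1, an enzyme that trims sulfate from heparan sulfate chains, was 39.1 ± 7.69 FPKM in the control and 144 ± 21.1 FPKM with Monosiga Yap-TBD (SD, n = 3), a 3.67-fold rise (limma adjusted p = 1.03e-05). It was 47.4 ± 3.62 FPKM with Yki S168A, and the difference between Monosiga Yap-TBD and Yki S168A passed the test (limma adjusted p = 0.000176). The heparan sulfate proteoglycan gene dally, whose product helps to spread and hold Dpp, was 61.9 ± 3.96 FPKM in the control. It rose to 171 ± 18.6, 158 ± 11 and 146 ± 34.0 FPKM (SD, n = 3) with Monosiga Yap-TBD, Yki S168A and Trichoplax Yap S81A (limma adjusted p = 8.54e-06, 9.13e-05 and 0.000123). CG32026 overlaps dally on the same strand, so reads may be shared.

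Fs, the fly follistatin, which binds ligands of the activin branch, was 36.0 ± 11.9 FPKM in the control. It was 132 ± 20.6 FPKM with Yki S168A (3.66-fold, limma adjusted p = 0.000808) and 152 ± 39.3 FPKM with Trichoplax Yap S81A (4.22-fold, 0.000282; SD, n = 3). The gene magu, a secreted factor also called pentagone that helps Dpp to spread in the wing disc, was 69.6 ± 3.80 FPKM in the control. It fell to 44.6 ± 4.82, 41.7 ± 5.15 and 22.5 ± 5.31 FPKM (SD, n = 3) with Monosiga Yap-TBD, Yki S168A and Trichoplax Yap S81A (limma adjusted p = 0.00908, 0.00777 and 1.75e-05). Its level was lowest with Trichoplax Yap S81A, as was that of brk. The difference of magu between Trichoplax Yap S81A and Yki S168A was called (limma adjusted p = 0.0192) but was lost without Yki S168A replicate 2 or 3 (0.127 and 0.0761) and without Trichoplax Yap S81A replicate 1 or 3 (0.0552 and 0.0623). Fs and magu each overlap genes on the other strand.

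The collagen gene Cg25C, which binds Dpp outside the cell and is made in quantity by fat body and hemocytes, fell with Monosiga Yap-TBD (ratio 0.403, limma adjusted p = 0.0457) and Yki S168A (ratio 0.297, 0.0228). These calls were made in 5 and 11 of 15 alternatives and were lost when 1 library was left out, with limma adjusted p up to 0.152 (without Monosiga Yap-TBD replicate 2) and 0.0836 (without control replicate 2). The 6 hemocyte markers summed to 29.1 to 55.3 FPKM in the control, 13.2 to 28.3 with Monosiga Yap-TBD and 12.4 to 18.9 with Yki S168A, and their part in these falls was not tested.

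Of 12 tested transcription factor and signalling genes known to respond to Dpp in some tissue, bi among them, 1 rose and 5 fell with Monosiga Yap-TBD. With Yki S168A and with Trichoplax Yap S81A, 2 rose and 3 fell. The shares of all genes were again 12.6% and 12%, 5.42% and 6.52%, and 6.09% each way. The median log2 differences of the list were -0.46, -0.26 and -0.21, and those of all tested genes 0.01, 0.00 and 0.04. The list holds genes that Dpp turns on, such as salm and salr, and genes it represses, such as wg and hth. Its counts and medians therefore describe no single direction of response to Dpp.

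The spalt genes salm and salr, zinc finger factors that Dpp turns on in the wing and that act in photoreceptors in the eye, fell the furthest of this list. In the control, salm was 12.2, 9.10 and 16.1 FPKM and salr 29.4, 21.8 and 31.5 FPKM. With Monosiga Yap-TBD, salm was 0.607, 0.898 and 0.578 FPKM and salr 1.47, 2.15 and 1.399 FPKM. Both stood far below the control in every library. Mean salm was 1.83 ± 0.105 FPKM with Yki S168A and 1.30 ± 0.345 FPKM with Trichoplax Yap S81A (SD, n = 3), and mean salr was 5.24 ± 0.51 and 3.88 ± 0.56 FPKM. All 6 differences from the control were called, with limma adjusted p from 1.2e-07 to 4.66e-05. In the same 9 libraries the markers of the eye disc behind the furrow summed to 73.8 to 207 FPKM against 355 to 442 FPKM in the control, and the part of these cells in the salm and salr levels was not tested.

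The gene wg, which Dpp represses in the eye disc, rose with 3 constructs. It was 4.63, 4.82 and 2.30 FPKM in the control and 11.2, 17.1 and 7.92 FPKM with Monosiga Yap-TBD. It was 67.5, 39.5 and 93.3 FPKM with Yki S168A and 106.9, 79.3 and 176.2 FPKM with Trichoplax Yap S81A. Every library of the 3 constructs was above the control, and every Yki S168A and Trichoplax Yap S81A library was above those of Monosiga Yap-TBD. Over the control, wg was 17.0-fold higher with Yki S168A (limma adjusted p = 4.2e-05), 30.8-fold with Trichoplax Yap S81A (3.04e-06) and 3.08-fold with Monosiga Yap-TBD (0.0123). The last of these was lost without Monosiga Yap-TBD replicate 2 (limma adjusted p = 0.0637) or control replicate 3 (0.0600). Monosiga Yap-TBD had less wg than Yki S168A (limma adjusted p = 0.00116) and than Trichoplax Yap S81A (9.87e-05).

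The retinal determination genes eya and so, which Dpp signalling helps to turn on ahead of the furrow, fell with Monosiga Yap-TBD. Against the control, eya went from 155 ± 23.2 to 81.4 ± 11.2 FPKM (SD, n = 3; limma adjusted p = 0.00101) and so from 98.2 ± 11.2 to 54.5 ± 11.4 FPKM (0.00281). With Trichoplax Yap S81A eya was 85.0 ± 3.70 FPKM (SD, n = 3; limma adjusted p = 0.00369). The markers of the eye disc behind the furrow summed to 355 to 442 FPKM in the control. They summed to 73.8 to 82.2 FPKM with Monosiga Yap-TBD and 147 to 196 with Trichoplax Yap S81A. The part of these cells in the eya and so levels was not tested. The gene hth, a progenitor factor that Dpp represses at the furrow, rose from 105.8 ± 9.94 to 242.5 ± 36.3 FPKM (SD, n = 3) with Yki S168A (limma adjusted p = 0.00161). With Trichoplax Yap S81A it was 173.5 ± 8.10 FPKM (SD, n = 3), a call (limma adjusted p = 0.0326) made in 6 of 15 alternatives and lost without any 1 of the 6 libraries compared (0.0510 to 0.110). The proneural gene ato fell from 25.1 ± 6.56 to 9.80 ± 0.40 FPKM (SD, n = 3) with Yki S168A (limma adjusted p = 0.00847).

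Upstream of dpp in the eye, the ligand gene hh was 17.0, 19.6 and 28.8 FPKM in the control, 15.2, 13.9 and 11.4 FPKM with Monosiga Yap-TBD, 45.1, 39.2 and 45.0 FPKM with Yki S168A and 53.4, 46.1 and 61.0 FPKM with Trichoplax Yap S81A. It rose 1.98-fold with Yki S168A (limma adjusted p = 0.00467) and 2.46-fold with Trichoplax Yap S81A (0.000607). With Monosiga Yap-TBD the ratio was 0.619 (limma adjusted p = 0.0317), a call made in 10 of 15 alternatives and lost without control replicate 2 or 3 (0.0516 and 0.149) or Monosiga Yap-TBD replicate 2 or 3 (0.0672 and 0.105). Monosiga Yap-TBD had less hh than Yki S168A (limma adjusted p = 0.000146) and than Trichoplax Yap S81A (3.57e-05). CG31457 overlaps hh on the same strand. Of the 7 Hedgehog genes tested, 1 rose and 2 fell with Monosiga Yap-TBD, 1 rose and 0 fell with Yki S168A, and 1 rose and 1 fell with Trichoplax Yap S81A, where 24.6%, 11.9% and 12.2% of all tested genes were called in either direction. Among them rdx, a Hedgehog target whose product acts against Ci, fell from 99.4 ± 21.7 to 41.6 ± 8.90 FPKM (SD, n = 3) with Monosiga Yap-TBD (limma adjusted p = 0.000171).

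**Figure D4:**
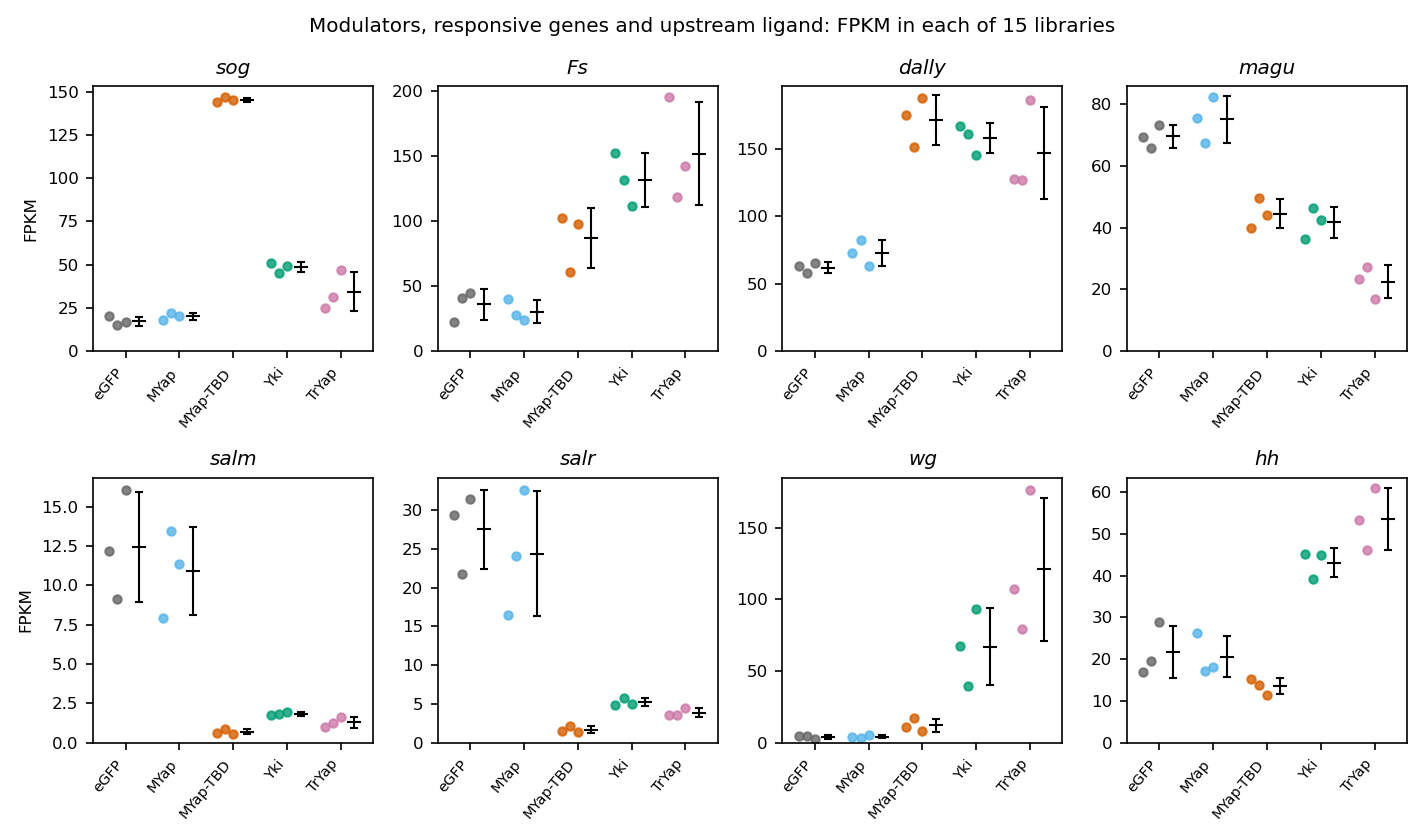
Level (FPKM, linear axis from 0) of the modulator genes sog, Fs, dally and magu, the responsive genes salm, salr and wg and the upstream ligand gene hh in the 15 libraries by group, with points for libraries and bars for the mean and SD of 3. The sog libraries of Monosiga Yap-TBD lie between 144.0 and 146.6 FPKM, while wg and hh are highest with Yki S168A and Trichoplax Yap S81A.

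The lists of ligands, receptors and Smad partners were short, and the shares of all tested genes given below hold for each list. Of 6 ligand genes tested, dpp was the only one that rose against the control. Actbeta, an activin-type ligand, fell with Monosiga Yap-TBD from 13.7 ± 2.72 to 6.57 ± 0.50 FPKM (SD, n = 3; limma adjusted p = 0.0156), a call lost without control replicate 3 (0.0705). None of the 5 receptor genes was called against the control with any construct in the limma test, apart from tkv and put with weights per library, as given above. Of 10 Smads and partners, 2 rose and 0 fell with Monosiga Yap-TBD (Dad and CtBP), 1 rose and 0 fell with Yki S168A (CtBP), and 2 rose and 1 fell with Trichoplax Yap S81A (Dad, CtBP and brk). Of all tested genes, 24.6%, 11.9% and 12.2% were called in these comparisons. CtBP, a corepressor used by Brinker, was 288 ± 3.0 FPKM in the control and 352 ± 2.48, 368 ± 5.90 and 350 ± 22.1 FPKM (SD, n = 3) with these constructs (limma adjusted p = 0.0160, 0.00959 and 0.0353). All 3 CtBP calls were lost under quantile normalization (limma adjusted p = 0.0921, 0.0541 and 0.0907), and with Trichoplax Yap S81A the call was also lost without Trichoplax Yap S81A replicate 1 or 3 (limma adjusted p = 0.0638 and 0.132) and without control replicate 1, 2 or 3 (0.0827, 0.0958 and 0.0827). With Monosiga Yap-TBD it was lost without replicate 1 of that group (0.0540).

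For likeness, the Pearson correlation of log2 levels over the 15 libraries was taken for 3703 of the 9213 tested genes. A mean level of at least 5 FPKM was required, and genes known only by an annotation identifier were left out. The remaining tested genes were not ranked, so the closest genes given here are the closest among those 3703. The libraries share 5 groups, so differences between groups set most of the correlation. Among the ranked genes, those closest to dpp were Ts at 0.976, BthD at 0.975, DNApol-alpha50 at 0.973, wts at 0.968 and emp at 0.964. Ts, thymidylate synthase, went from a mean of 0.087 FPKM in the control to 44.8 FPKM with Monosiga Yap-TBD, and the Hippo pathway kinase gene wts from 17.8 to 50.6 FPKM. Ts, BthD and DNApol-alpha50 each overlap another gene. For Dad the closest were Cpr97Eb at 0.948, Timp at 0.938, Orc2 at 0.937, Cad87A at 0.928 and Nplp1 at 0.927. For brk they were less close, with shf at 0.784, Sobp at 0.758, M(2)21AB at 0.747, PH4alphaEFB at 0.714 and magu at 0.700. Of these neighbours of Dad and brk, Timp, Cad87A, shf and magu overlap genes on the other strand, and PH4alphaEFB overlaps spdo on the same strand.

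The authors' deposited table sets each construct against the control as a natural log ratio. In the authors' deposited table dpp stood at 0.0506 for Monosiga Yap, 1.48 for Monosiga Yap-TBD, 1.25 for Yki S168A and 1.35 for Trichoplax Yap S81A. For brk with Trichoplax Yap S81A the authors' deposited table holds -0.877 (p = 3.02e-07), and for bi with Monosiga Yap-TBD -0.419 (p = 0.00204). For Dad the authors' deposited table holds 0.503 with Monosiga Yap-TBD (p = 3.35e-05) and 0.358 with Trichoplax Yap S81A (p = 0.00962). The p-values of the authors' deposited table given here are not adjusted over genes, and they were also below 0.05 for members that limma did not call. For shn the authors' deposited table holds 0.242 (p = 0.00824) for Monosiga Yap-TBD, 0.286 (p = 0.00405) for Yki S168A and 0.276 (p = 0.00817) for Trichoplax Yap S81A. The authors' deposited table holds 0.307 for gbb (p = 0.0456) and 0.227 for tkv (p = 0.0379) with Yki S168A, and -0.269 for Med with Monosiga Yap-TBD (p = 0.0344).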

How the data were processed

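Polyadenylated RNA of 15 libraries was sequenced. Cuffdiff 1.0.2, Cufflinks, TopHat 1.0.14 and CASAVA 1.7.0 are the tools, and dm3 the build, per the submitters' processing notes, with roles, order and use of strand not given in the sources used here. The deposited FPKM values were computed by the authors from fragments, transcript length and library size. The deposited natural log ratios of construct over control and their p-values were computed by the authors for 14672 genes. A log2 mean level and a score of adjusted p in the same deposited table were not used.

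Depth was estimated from the steps between low FPKM values (length correction 204 bases, with 67.1 to 70.3% of the values used in each library within 0.1 of a whole number). An FPKM of 1 over 2000 bases rested on about 21.6 fragments at the lowest depth. FPKM are not counts, so no count test was run.

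Values were taken as log2(FPKM + 1), and differences on this scale understate changes of low genes. R 4.3.3 with limma 3.58.1 fitted one model of 5 group means with trended, robust moderation (residual degrees of freedom 10, prior 3.75 at the median). The 8 comparisons were two-sided, with Benjamini-Hochberg adjustment over the 9213 tested genes. Folds are ratios of mean FPKM. The median SE was 0.193. The fit was tested on simulated data. Tables used Python 3.11.15, numpy 2.4.6, pandas 2.3.3 and matplotlib 3.10.9. All libraries were kept, and correlations within groups were 0.931 to 0.9655.

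The 10 members and the lists were chosen with earlier results of these data known. List genes named were up to 4 called per list and direction and comparison with the control, with largest differences first, and some others named in counts were chosen after their values were seen. Same-numbered libraries of different groups correlated between -0.401 and 0.321 in their deviations (median -0.0398), so the numbers were not taken as pairs. No genome of the build was used, so no sequence is shown and a planned search of promoters for motifs was not run.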

Additional observations from a re-analysis of the deposited data

How the results depend on the processing

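Single genes were followed through the alternatives only for the members and the list genes picked by the rule above. For these genes, no called difference changed sign under any of the 15 alternatives run for each comparison (1320 values). The list genes were picked as called with the largest differences. The lack of sign changes was therefore likely beforehand and does not describe the other tested genes. Of 2280 values for differences that were not called, 109 changed sign, 57 of them for members, where the main log2 difference was at most 0.15 in size. Over the genes followed singly, 3437 results kept their side of the threshold, 115 lost a call and 48 gained one. Weights per library gave 3759 called genes for Monosiga Yap-TBD, 2214 for Yki S168A and 1925 for Trichoplax Yap S81A against the control, 172 for Trichoplax Yap S81A against Yki S168A, and 2121 and 1361 for Monosiga Yap-TBD against Yki S168A and Trichoplax Yap S81A; the cause was not tested. Of the members they called 6 with Monosiga Yap-TBD and 2 with Yki S168A against the control, and 4 in Monosiga Yap-TBD against Yki S168A. A fit of the compared groups alone, which has fewer samples, called 13 genes in Monosiga Yap against the control, 21 in Trichoplax Yap S81A against Yki S168A and 1544 in Monosiga Yap-TBD against Monosiga Yap. That fit called 0 members for Monosiga Yap-TBD against Yki S168A and 1 against Trichoplax Yap S81A, and quantile normalization also called 1 in the latter.

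Leaving out each replicate in turn gave 16 to 21 called genes for Monosiga Yap, 1621 to 2068 for Monosiga Yap-TBD, 723 to 831 for Yki S168A and 745 to 890 for Trichoplax Yap S81A against the control. It gave 1697 to 2801 for Monosiga Yap-TBD against Monosiga Yap, 29 to 37 for Trichoplax Yap S81A against Yki S168A, 363 to 651 for Monosiga Yap-TBD against Yki S168A and 317 to 447 against Trichoplax Yap S81A. Members called ranged from 0 to 1 for Monosiga Yap-TBD against Yki S168A and from 0 to 2 against Trichoplax Yap S81A.

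With the replicate block, the members called stayed at 0, 3, 1 and 3 for Monosiga Yap, Monosiga Yap-TBD, Yki S168A and Trichoplax Yap S81A against the control, with 25, 2148, 1002 and 1039 genes called. The block called 4 members for Monosiga Yap-TBD against Monosiga Yap (2299 genes), 1 for Trichoplax Yap S81A against Yki S168A (39 genes), and 1 and 2 for Monosiga Yap-TBD against Yki S168A and Trichoplax Yap S81A (541 and 540 genes). Among the members and the list genes followed singly, the block lost the calls of Cg25C with Monosiga Yap-TBD (limma adjusted p = 0.0752) and rdx with Trichoplax Yap S81A (0.0555). It changed no other call of these genes. The other tested genes enter only the counts of called genes. Of 30 pairs of same-numbered libraries, 6 correlated above 0.1.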
